A study of Mus musculus with 12 samples.

Results

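The transient Day 3 response to *Sox17*-*Erg* was a set of 50 genes among 21793 protein-coding genes, and its members were chosen by their measured values. At Day 3 the mean of a member in *Sox17*-*Erg* samples exceeded that in control by at least 1 on a log2(CPM + 1) scale, where CPM is the count of a gene scaled to a library total of 1000000. Both of its *Sox17*-*Erg* libraries lay above both control libraries at Day 3, and its 4 week difference lay between -0.3 and 0.3. The Day 3 and 4 week values below are therefore descriptions of what was selected and carry no test. Day 7 was not used in the choice, and its differences were tested. Of the 595 protein-coding genes that met both Day 3 conditions, these 50 were back near the control level at 4 weeks on the log2(CPM + 1) scale.

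The cells were cardiac fibroblasts isolated from pooled hearts of neonatal mice and cultured in EGM2, an endothelial growth medium. The study's methods name C57BL/6J mice and a *Tcf21*-CreERT2 by *Rosa26*-tdTomato cross as cell sources without tying one to these libraries. PECAM1-positive cells were depleted during isolation for the characterization of iECs, a step the methods give as conditional, and the methods then retain THY1-positive cells on a magnetic column. The cells carried retroviruses for *Sox17* and *Erg*, both transcription factors of endothelial cells, or served as controls that the library names call PMX, the retroviral backbone. Bulk RNAseq covered Day 3, Day 7 and 4 weeks, each of the 6 groups had 2 libraries, and totals ran from 19011635 to 41240449 counts. These were bulk samples, so fewer cells of a type and less RNA per cell cannot be told apart. Nothing in the labels ties a library to its own isolation, and p-values then measure only the spread between these libraries. *Sox17* had 812 and 411 CPM in the *Sox17*-*Erg* libraries at Day 3 and at most 0.40 in any control library. *Erg* had 48.4 and 24.6 CPM at Day 3, against 0.0738 and 2.18 in control. All 10 endothelial markers had counts, and their summed CPM was 455 and 299 in *Sox17*-*Erg* samples at Day 3, against 29.5 and 59.0 in control. *Cdh5*, with 216 and 141 CPM, *Kdr* and *Emcn* carried the sum, while *Vwf*, *Egfl7* and *Cldn5* overlapped with control. The label of the *Sox17*-*Erg* samples is iEC, an induced endothelial cell. At Day 3 the 10 fibroblast markers summed to 27490 and 40015 CPM in them and to 33491 and 38737 in control, sums carried by *Col1a1*, *Col1a2* and *Postn*. *Tcf21*, a fibroblast transcription factor, had 15.6 and 44.4 CPM against 182 and 246 in control, and *Pdgfra* had 118 and 279 against 552 and 728.

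Forced expression of transcription factors changes many genes at once, and some of these changes fade while the cell settles into a new state. Genes of cell division follow the cell cycle, in which E2F factors switch on replication genes before DNA synthesis and mitotic kinases act later. *Myc* encodes a transcription factor that drives growth through ribosome and nucleotide synthesis.

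The median difference between *Sox17*-*Erg* and control over the 50 genes went from 1.29 at Day 3 through 0.54 at Day 7 to 0.04 at 4 weeks, on the log2(CPM + 1) scale. In the 373 genes with the same Day 3 conditions and a 4 week difference of at least 1, it was 1.52, 1.96 and 2.22. The 4 week values of both sets were bounded by their choice, and the Day 7 values were not. At Day 7, 49 of the 50 transient genes still had a positive difference, and 9 had one of at least 1. Both *Sox17*-*Erg* libraries lay above both control libraries for 29 of the 50, or 58.0%, against 84.5% of the 373 sustained genes and 23.6% of all protein-coding genes with a count. None of the 50 had both libraries below, against 26.0% of all such genes. At 4 weeks both libraries lay above for 8 members and below for 5, against 27.8% and 24.6% of all protein-coding genes with a count, and nothing is read from these counts because the 4 week window limits them. For 5 members the Day 7 difference was the larger one, namely *Rab3c*, *Grm8*, *P2ry1*, *Dnm3* and *Ctnnd2*, and for 15 members it was already under 0.3.

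**Figure D1:**
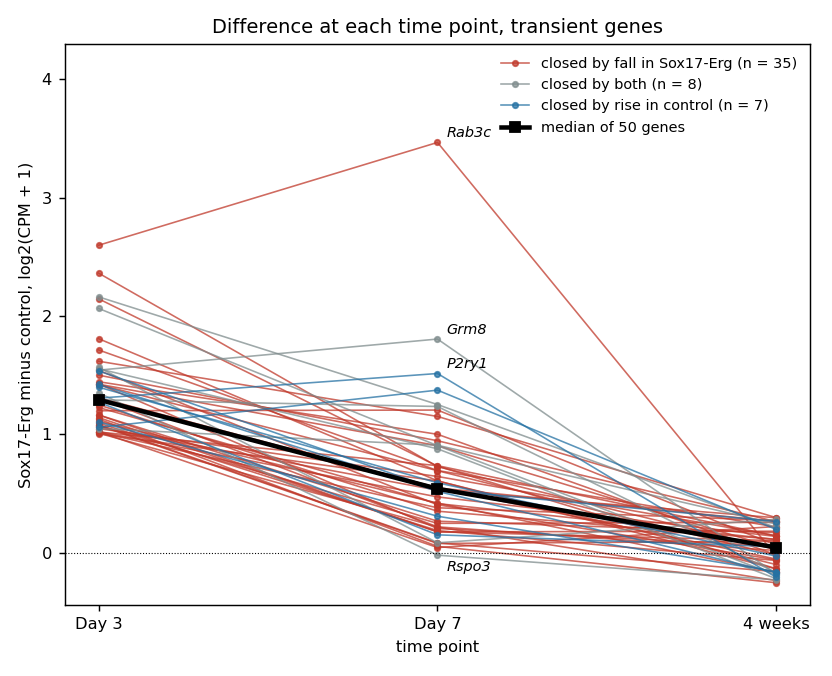
Difference between *Sox17*-*Erg* and control means (y axis, log2(CPM + 1)) at 3 time points (x axis) for each of the 50 genes, colored by the way the difference closed, with the median in black. The median goes from 1.29 to 0.54 to 0.04, and *Rab3c* stands apart with 3.47 at Day 7.

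The selection was sensitive to single libraries. Without *Sox17*-*Erg* replicate 1 at Day 3 the same rule gave 25 genes, 23 of them among the 50, and without replicate 2 it gave 126, with 49 of them. Without control replicate 1 at Day 3 it gave 103 genes, and without *Sox17*-*Erg* replicate 2 at 4 weeks 101. In the *Sox17*-*Erg* samples at Day 3, replicate 1 was above replicate 2 for 45 of the 50 members, against 56.6% of all protein-coding genes with a count and 92.2% of the sustained genes. *Sox17* and *Erg* were also higher in that replicate, and their part in these values was not tested. Among genes with at least 5 CPM in some group, *Mcm4*, *Traip* and *Cad* lay just inside the Day 3 limit, with differences of 1.01, 1.02 and 1.02, and *Rpa2*, *Nfasc* and *Cdca7* just outside with 0.99, 0.98 and 0.98. At the upper 4 week limit, under the same minimum, *Chaf1a*, *Traip* and *Dnajc9* were inside with 0.30, 0.27 and 0.26, while *Nrp1*, *Tyms* and *Bard1* were outside with 0.30, 0.31 and 0.31. At the lower limit *Mcm4*, *St3gal1* and *P2ry1* were inside with -0.24, -0.22 and -0.21, and *Nup35* and *Gm20521* were outside with -0.31 and -0.38. Below that minimum, *Chrna7* was nearer to the Day 3 limit, with 1.01, *Il6* to the upper 4 week limit, with 0.30, and *Soga3* to the lower one, with -0.25.

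Replication and division was the role of 10 members. *Cdk1*, the kinase that drives entry into mitosis (ENSMUSG00000019942, GRCm38 chromosome 10, 69335146 to 69352938), had 41.6 and 33.1 CPM in control and 95.6 and 74.5 in *Sox17*-*Erg* samples at Day 3. On Day 7 it had 58.2 and 23.1 CPM in control and 61.9 and 28.0 in *Sox17*-*Erg* samples. At 4 weeks the values were 11.1 and 11.6 in control and 8.12 and 18.3 in *Sox17*-*Erg* samples. The groups were apart only at Day 3, and both treatments were far lower at 4 weeks than at Day 3. *Mcm4* and *Mcm3* encode subunits of the helicase that opens DNA for replication. *Mcm4* had 35.7 and 30.3 CPM in control and 77.5 and 58.3 in *Sox17*-*Erg* samples at Day 3, and 43.2 and 23.0 against 43.7 and 31.1 at Day 7. *Mcm3* had 26.2 and 17.8 against 56.8 and 40.2 CPM at Day 3, and 26.7 and 16.9 against 36.9 and 22.5 at Day 7. *Pole*, the catalytic subunit of a replicative DNA polymerase, had 16.2 and 12.9 against 41.1 and 30.0 CPM at Day 3, and 20.8 and 8.16 against 26.0 and 12.2 at Day 7. The other members of this role were *Chaf1a*, of the complex that places histones on new DNA, *Dnajc9* and *Hirip3*, which bind histones or their chaperones, *Gen1*, a nuclease that resolves joined DNA strands, *Traip*, a ubiquitin ligase of the replication machinery, and *Gtse1*, a p53-regulated gene of the later cell cycle.

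None of these 10 genes was called at Day 7, where the quasi-likelihood test of edgeR was applied at a Benjamini-Hochberg adjusted p under 0.05. Among all 15506 genes tested, 9.48% were called higher and 7.93% lower at Day 7. Fitted log2 fold changes of the 10 ran from 0.19 ± 0.47 (SE, n = 2 per group, adjusted p = 0.82, edgeR) for *Cdk1* to 0.71 ± 0.42 (adjusted p = 0.28, edgeR) for *Hirip3*. For each of the 10 the Day 7 groups overlapped, with replicate 1 of control above replicate 2 of *Sox17*-*Erg*. Between libraries of the same number, the *Sox17*-*Erg* library was the higher one for all 10 genes in replicate 1 and in replicate 2. Summed over the 10 genes, the Day 7 libraries held 242 and 116 CPM in control and 291 and 160 in *Sox17*-*Erg* samples. The sums had been 192 and 153 in control and 451 and 325 in *Sox17*-*Erg* samples at Day 3, and were 76.7 and 103 against 71.3 and 120 at 4 weeks. All 10 closed their difference through a fall in the *Sox17*-*Erg* samples, and 9 of the 10 were also lower at 4 weeks than at Day 3 in both treatments, with *Dnajc9* as the exception in control.

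Matched to RefSeq by symbol, 38 of the 50 genes had a promoter of 250 bases before and 50 after the transcript start on GRCm38.p6. *Cysltr1*, *St3gal1*, *Ret*, *Msc*, *Fabp5*, *Myc*, *Rspo3*, *Pole*, *A2m*, *Nup43*, *Gcnt3* and *Mcm4* had none. On either strand, CGGAAG, the core that ETS factors such as ERG bind, was present in 8 of the 38 promoters, or 21.1%, against 21.5% of 17492 protein-coding promoters of the same length. It was present in 5 of the 8 promoters of replication and division genes, or 62.5%, and in 3 of the 30 of other members. GGCGGGA, an E2F motif, was in 26.3% of the 38 and in 14.9% of all. CATTGT, a SOX motif, was in 2.63% of the 38 and 11.4% of all, and the only member with it was *Il6*. The roles were assigned with the values known, and these shares are descriptions of letters and not of binding. The stretches below lie before the RefSeq start of 5 division genes, written 5′ to 3′ along the gene, with the searched motif or its reverse complement in capitals, and show where the motif letters fall. *Traip* (chr9:107950901-107950962, plus strand) and *Gtse1* (chr15:85859531-85859626, plus strand) hold CGGAAG on the opposite strand. *Chaf1a* (chr17:56040325-56040415, plus strand) and *Gen1* (chr12:11265961-11266057, minus strand) hold the E2F motif. *Cdk1* (chr10:69352913-69353028, minus strand) holds TTTGAA, the cell cycle homology element, at 2 places.
Traip: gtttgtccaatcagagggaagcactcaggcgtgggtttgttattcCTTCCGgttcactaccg
Gtse1: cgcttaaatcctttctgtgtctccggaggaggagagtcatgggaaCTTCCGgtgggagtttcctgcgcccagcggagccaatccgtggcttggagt
Chaf1a: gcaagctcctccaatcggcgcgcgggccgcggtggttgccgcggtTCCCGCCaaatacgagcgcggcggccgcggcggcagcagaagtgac
Gen1: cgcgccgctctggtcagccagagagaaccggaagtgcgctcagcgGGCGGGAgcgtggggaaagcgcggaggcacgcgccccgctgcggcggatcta
Cdk1: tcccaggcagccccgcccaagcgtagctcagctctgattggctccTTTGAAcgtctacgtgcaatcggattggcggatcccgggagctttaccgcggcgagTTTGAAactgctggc
TTTGAA was in 18.4% of the 38 promoters and 16.5% of all. The *Traip* stretch ends at the base before the start, and in it the ETS letters lie within the last 20 bases. In *Gen1* the lower case letters shortly before the capitals also hold CGGAAG.

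The other genes of the division pathways came from lists of DNA replication and mitosis genes. Leaving out the members, 3 of 47 replication genes were called higher at Day 3, and at Day 7 and 4 weeks 1 was called higher and 1 lower each. Medians of their fitted log2 fold change were 0.95, 0.48 and 0.29. At Day 3, 7.19% of all genes tested were called higher and 5.13% lower, and at 4 weeks 11.9% and 11%. Over all genes tested the median was 0.01 at Day 3 and Day 7. Of 44 mitosis genes other than *Cdk1*, none was called at Day 3 or Day 7 and 11 were called higher at 4 weeks, with medians of 1.28, 0.70 and 1.61. *Mki67*, the proliferation marker, had a fitted log2 fold change of 1.46 ± 0.63 at Day 3 (adjusted p = 0.15, edgeR) and 2.25 ± 0.66 (adjusted p = 0.036, edgeR) at 4 weeks.

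A further 6 members serve growth and the handling of nuclear RNA or the nuclear pore. *Myc* (ENSMUSG00000022346, chromosome 15, 61985391 to 61990374) had 23.6 and 18.5 CPM in control and 69.4 and 48.1 in *Sox17*-*Erg* samples at Day 3. On Day 7 it had 23.1 and 22.8 against 27.2 and 26.1 CPM, and at 4 weeks 31 and 26.9 against 35.1 and 25.7. Its Day 7 libraries did not overlap, but the fitted log2 fold change of 0.23 ± 0.21 was not called (adjusted p = 0.50, edgeR). *Cad*, the enzyme that starts pyrimidine synthesis, had 66.3 and 50.9 against 139 and 101 CPM at Day 3 and 43.3 and 31.2 against 75.2 and 51.0 at Day 7. Its Day 7 change of 0.79 ± 0.26 missed the threshold (adjusted p = 0.070, edgeR). *Dkc1*, the pseudouridine synthase of small nucleolar RNPs, had 16.0 and 11.5 against 39.0 and 28.9 CPM at Day 3, and 12.2 and 9.94 against 15.9 and 12.9 at Day 7. It was back to 9.04 and 12 against 10.5 and 12.2 CPM at 4 weeks. *Nup43*, a nucleoporin, had 2.66 and 2.94 against 8.47 and 5.95 CPM at Day 3, and its Day 7 groups overlapped. None of the 6 was called at Day 7, where 9.48% of all genes tested were called higher and 7.93% lower.

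Genes of ribosome biogenesis, the list that holds *Dkc1*, had their higher fold changes at Day 3 as well. Of 46 listed genes other than *Dkc1*, 29 were called higher at Day 3 and 5 at Day 7. At 4 weeks 1 was called higher and 1 lower, and the medians were 0.67, 0.33 and 0.15. *Nop56*, a core protein of box C/D snoRNPs, had a fitted log2 fold change of 1.29 ± 0.25 at Day 3 (adjusted p = 0.015, edgeR) and 0.60 ± 0.25 at Day 7 (adjusted p = 0.14). *Ncl*, which encodes nucleolin, had 0.78 ± 0.16 at Day 3 (adjusted p = 0.019, edgeR) and 0.20 ± 0.16 at Day 7 (adjusted p = 0.44). *Nop16* was called at all 3 time points, with 1.19, 0.84 and 0.52. The immediate early genes, the list that holds *Myc*, had more calls at the later time points. Of 30 such genes other than *Myc*, 4 were called higher at Day 3, then 9 at Day 7 and finally 18 at 4 weeks. *Jun*, a subunit of AP-1, had 1.69 ± 0.29, 2.22 ± 0.29 and 2.79 ± 0.30 over the 3 time points (adjusted p = 0.0097, 0.0015 and 0.00028, edgeR). Differences between time points were not tested for these lists.

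**Figure D2:**
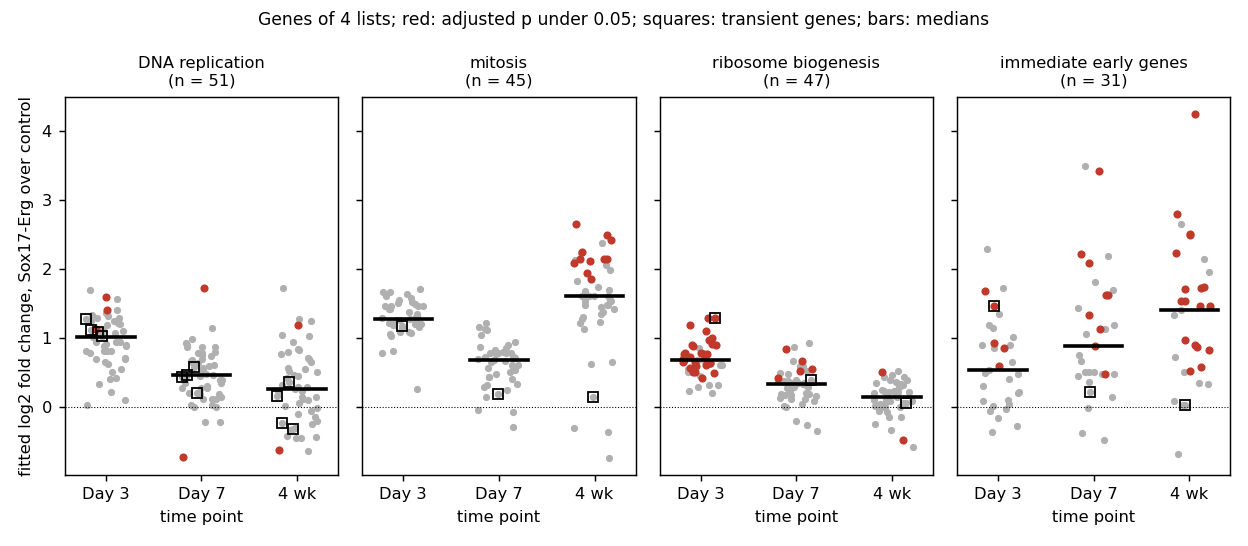
Fitted log2 fold change of *Sox17*-*Erg* over control (y axis) at 3 time points (x axis) for the genes of 4 lists, with called genes in red, members of the transient set as squares and list medians as bars. Ribosome biogenesis genes go from mostly called at Day 3 to mostly uncalled, while 18 immediate early genes are called at 4 weeks.

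Of the 50 members, 17 were called higher at Day 7, 34.0%, and 0 lower, against 9.48% and 7.93% of all genes tested. At an unadjusted p under 0.05 the counts were 20 and 0. *Bex1*, *Fndc3c1*, *Irs4*, *Chrna7*, *Usp51* and *Cyp2j5* had at most 3 counts in each control library at Day 7 and so had no room to be called lower, and 5 of these 6 were among the 17. Of the other 44 members, 12 were called higher. This alternative was chosen after seeing the data. All 17 had their Day 7 libraries apart, as did 12 of the 33 that were not called. The count fell to 5 when *Sox17*-*Erg* replicate 1 at Day 7 was left out, to 9 without replicate 1 or without replicate 2 of control, and to 5 when the 4 Day 7 libraries were fitted alone. *Rab3c*, *P2ry1*, *St3gal1* and *St7* were called in each of the 12 fits that were run, and the other 13 in 5 to 11 of them. In the 4 of these that leave out a Day 7 library, the lone library of its group was assumed to vary like the other groups. DESeq2 called 19 of the 50 higher and 0 lower.

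**Figure D3:**
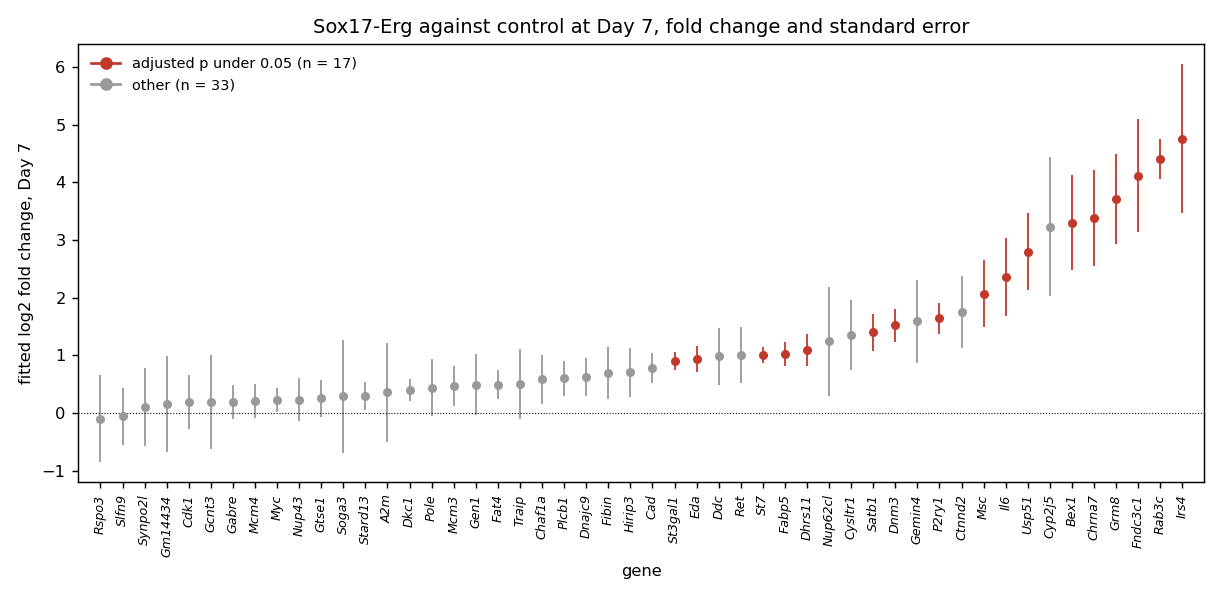
Fitted log2 fold change at Day 7 (y axis) with its standard error for each of the 50 genes in order of size (x axis), in red where the adjusted p was under 0.05. The 17 called genes run from 0.90 for *St3gal1* to 4.76 for *Irs4*, and only *Rspo3* and *Slfn9* lie below 0.

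Genes of vesicle traffic and neurons held the member with the largest Day 7 difference on the log2(CPM + 1) scale. *Rab3c*, a small GTPase of secretory vesicles (ENSMUSG00000021700, chromosome 13, 110054187 to 110280996), had 2.18 and 2.36 CPM in control and 18.1 and 19.5 in *Sox17*-*Erg* samples at Day 3. On Day 7 it had 1.16 and 0.893 against 18.1 and 25.1 CPM, and at 4 weeks 0.994 and 1.45 against 1.55 and 0.840. The high level thus held for both early time points and was gone at 4 weeks, and the Day 7 log2 fold change was 4.41 ± 0.34 (adjusted p = 0.00012, edgeR). *Dnm3*, a dynamin that pinches off membrane vesicles, had 4.13 and 3.29 against 9.31 and 8.29 CPM at Day 3 and 3.83 and 6.45 against 11.8 and 17.8 at Day 7. Its Day 7 change was 1.53 ± 0.29 (adjusted p = 0.0077, edgeR). *Ctnnd2*, a neuronal relative of p120 catenin, had 2.47 and 1.05 against 8.61 and 2.94 CPM at Day 7, with a change of 1.76 ± 0.62 that was not called (adjusted p = 0.084, edgeR). *Bex1*, a small adaptor protein of neurons, had 0.258 and 0.0890 against 7.31 and 3.37 CPM at Day 3, and 30.0% of its 31-base words occur in other genes. It was called at Day 7, with 0.120 and 0.0388 against 0.977 and 0.615 CPM.

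The 13 ligands, receptors and signaling genes were mostly of low level, and 6 of the 13 were called higher at Day 7. Of all 50 members 34.0% were called higher, and of all genes tested 9.48%. Roles were assigned with the values known, so nothing is read from this count. *Il6*, the inflammatory cytokine, had 1.26 and 0.489 CPM in control and 4.79 and 4.47 in *Sox17*-*Erg* samples at Day 3. On Day 7 the values were 0.718 and 0.117 against 2.28 and 1.89, a log2 fold change of 2.35 ± 0.68 (adjusted p = 0.042, edgeR). Its groups were apart at all 3 time points, with 0.267 and 0.290 against 0.760 and 0.40 CPM at 4 weeks. The closeness of *Il6* at 4 weeks depends on the pseudocount of 1 CPM, since its fitted log2 fold change there was 1.03 ± 0.72 (edgeR, SE), given with no test. Of 29 other cytokines and chemokines tested, 4 were called higher and 6 lower at Day 7. The summed CPM of 10 macrophage and leukocyte markers at Day 7 was 951 and 1272 in control and 278 and 455 in *Sox17*-*Erg* samples, opposite to *Il6*. The sum of smooth muscle and pericyte markers went the same way as *Il6*, with 1443 and 560 against 4713 and 2194. *Acta2*, *Tagln* and *Notch3* carried that sum, while *Des*, *Abcc9* and, near 0, *Kcnj8* were lower in *Sox17*-*Erg* samples. At Day 3, 10 cardiomyocyte markers summed to 1562 and 864 CPM in control and 433 and 321 in *Sox17*-*Erg* samples. *Tnnt2* carried these sums, with 1451 and 800 against 370 and 284. The 10 epicardial and mesothelial markers summed to 1137 and 432 against 365 and 203, most of it from *Msln* and *Ezr*. Other markers of both lists, such as *Myh6*, *Nppa*, *Wt1* and *Krt18*, overlapped between the groups. The THY1 selection is directed at fibroblasts, and these marker RNAs were nonetheless measured in the cultures. Their part in the members' values was not tested.

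*P2ry1*, a receptor for ADP that endothelial cells and platelets carry (ENSMUSG00000027765, chromosome 3, 61002795 to 61008982), had 4.95 and 6.54 CPM in control and 19.7 and 12.3 in *Sox17*-*Erg* samples at Day 3. On Day 7 it had 6.03 and 7.77 against 20.4 and 22.5, and the change was 1.64 ± 0.27 (adjusted p = 0.0040, edgeR). At 4 weeks control had reached 14.2 and 22.1 CPM, around the 15.1 and 15.4 of the *Sox17*-*Erg* samples. *Eda*, the ectodysplasin ligand, had 6.39 and 5.34 against 33.3 and 22.9 CPM at Day 3 and 9.78 and 14.4 against 22.5 and 23.8 at Day 7. The Day 7 change was 0.94 ± 0.22 (adjusted p = 0.019, edgeR). *Grm8*, a glutamate receptor, had 2 and 0 counts in the control libraries at Day 3 and 51 and 36 in the *Sox17*-*Erg* libraries, and at Day 7 it had 12 and 1 against 133 and 70. *Irs4*, an insulin receptor substrate, and *Chrna7*, an acetylcholine receptor subunit, were also at the detection limit in control. *Irs4* had 0 and 0 counts in control and 47 and 26 with *Sox17*-*Erg* at Day 3, then 1 and 0 against 22 and 16 at Day 7, and 6 and 1 against 0 and 4 at 4 weeks. *Chrna7* had 1 and 2 counts against 32 and 17 at Day 3, and 1 and 2 against 34 and 8 at Day 7. All 3 were called higher at Day 7, and their fitted fold changes depend on how counts near 0 are treated.

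*Ret*, the receptor tyrosine kinase for GDNF ligands, fell the most of all members in *Sox17*-*Erg* samples on the log2(CPM + 1) scale. It had 3.03 and 5.07 CPM in control and 10.5 and 17.0 with *Sox17*-*Erg* at Day 3, 0.718 and 0.349 against 1.33 and 0.747 at Day 7, and 0.194 and 0.166 against 0.104 and 0.160 at 4 weeks. From Day 3 to 4 weeks its mean went down by a log2(CPM + 1) value of 3.67 in *Sox17*-*Erg* samples while control changed by -2.07. Its Day 7 change was 1.01 ± 0.49 and was not called (adjusted p = 0.19, edgeR). *Rspo3*, a secreted amplifier of Wnt signaling that endothelial cells can release, had 0.148 and 0.178 against 3.84 and 0.821 CPM at Day 3. It was the one member with a negative Day 7 difference on the log2(CPM + 1) scale, where it had 0.918 and 0.233 against 0.597 and 0.439. *Cysltr1*, a leukotriene receptor, had 0.812 and 0.222 against 6.10 and 2.83 CPM at Day 3, and its Day 7 change of 1.35 ± 0.60 was not called (adjusted p = 0.16, edgeR).

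*Satb1*, *Msc* and *Usp51*, grouped under transcription and chromatin after their values were seen, were each called at Day 7, but *Msc* and *Usp51* in only 6 of the 12 fits and *Satb1* in 8. *Myc*, a transcription factor grouped with growth, and the histone-binding genes grouped with replication were not. Over all 50 members the share called higher was 34.0%, and over all genes tested 9.48%. *Satb1*, a chromatin organizer (ENSMUSG00000023927, chromosome 17, 51736187 to 51833290), had 3.06 and 3.16 CPM in control and 24.1 and 12.5 in *Sox17*-*Erg* samples at Day 3. On Day 7 it had 4.95 and 7.34 against 19.6 and 12.7, a log2 fold change of 1.40 ± 0.32 (adjusted p = 0.018, edgeR). At 4 weeks the values were 7.98 and 8.13 against 8.60 and 10.4, so control rose while *Sox17*-*Erg* samples declined. *Msc*, a basic helix-loop-helix repressor also called musculin, had 0.554 and 0.712 against 3.31 and 3.94 CPM at Day 3 and 0.319 and 0.505 against 1.28 and 2.24 at Day 7. *Usp51*, a deubiquitinase of histone H2A, had 2 and 2 counts in control and 73 and 39 in *Sox17*-*Erg* samples at Day 3, and 3 and 3 against 40 and 13 at Day 7. At 4 weeks its groups were still apart, with 0 and 0 counts against 6 and 3. That difference of 0.22 depends on the pseudocount of 1 CPM.

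The most abundant members were 2 genes of metabolism. *Fabp5*, a fatty acid carrier (ENSMUSG00000027533, chromosome 3, 10012548 to 10016607), had 127 and 129 CPM in control and 338 and 363 in *Sox17*-*Erg* samples at Day 3. It had 67.0 and 54.4 against 122 and 122 CPM at Day 7 and 41.6 and 47.9 against 32.4 and 59.8 at 4 weeks. The Day 7 change was 1.02 ± 0.21 (adjusted p = 0.010, edgeR), and both treatments lost *Fabp5* with time. *St3gal1*, a sialyltransferase (ENSMUSG00000013846, chromosome 15, 67102875 to 67176830), had 104 and 85.1 against 327 and 236 CPM at Day 3 and 155 and 131 against 282 and 245 at Day 7. At 4 weeks it had 174 and 151 against 134 and 144, with both *Sox17*-*Erg* libraries below both controls. Its Day 7 change was 0.90 ± 0.16 (adjusted p = 0.0055, edgeR). *Dhrs11*, a short-chain dehydrogenase, had 3.17 and 4.05 against 14.1 and 9.03 CPM at Day 3 and was called at Day 7 with 1.09 ± 0.28 (adjusted p = 0.027, edgeR). *Cyp2j5*, a cytochrome P450, had 1 and 0 counts in control and 38 and 18 in *Sox17*-*Erg* samples at Day 3, and 0 and 1 against 7 and 6 at Day 7, which was not called (adjusted p = 0.11, edgeR). At 4 weeks it had 0 and 0 counts against 5 and 2, a difference of 0.17 that also depends on the pseudocount of 1 CPM.

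**Figure D4:**
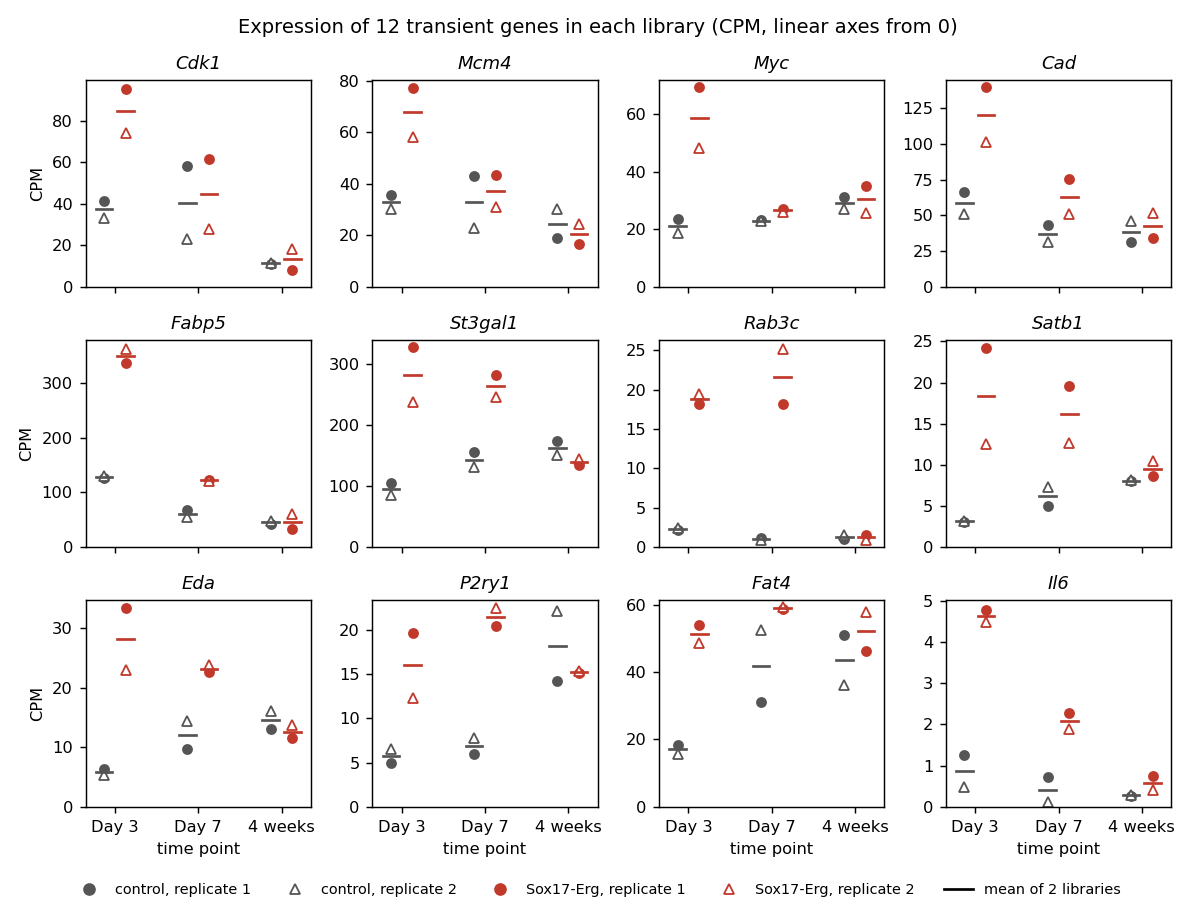
CPM (y axes, linear from 0) of 12 members in each library at 3 time points (x axes), control in gray and *Sox17*-*Erg* in red, replicate 1 as circles and replicate 2 as triangles, means as bars. *Cdk1* and *Mcm4* overlap at Day 7, *Rab3c* and *P2ry1* do not, and *Fat4* closes through higher control values.

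The difference of a member can close from either side. For 35 members a fall in the *Sox17*-*Erg* samples made up at least 2/3 of the change in difference from Day 3 to 4 weeks, for 7 a rise in control did, and 8 were mixed. The median log2(CPM + 1) level of the 35 in *Sox17*-*Erg* samples went from 3.12 through 2.17 to 1.12 over the 3 time points, and in control from 1.92 through 1.42 to 1.14. The 7 genes that closed by a rise in control went from 2.54 to 2.97 to 4.23 in control, while *Sox17*-*Erg* samples stayed between 3.93 and 4.40. These were *Fat4*, *Fibin*, *Plcb1*, *P2ry1*, *Gabre*, *Stard13* and *Dnm3*. Without single libraries the first count ran from 16 to 102 and the second from 5 to 12, as the set itself changed.

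*Fat4*, a giant cadherin of planar cell polarity (ENSMUSG00000046743, chromosome 3, 38886940 to 39011985), had 18.3 and 15.8 CPM in control and 54.1 and 48.7 in *Sox17*-*Erg* samples at Day 3. Control then had 31 and 52.5 at Day 7 and 50.9 and 36.2 at 4 weeks, while *Sox17*-*Erg* samples had 58.6 and 59.2, and 46.3 and 57.9. The *Sox17*-*Erg* level was thus reached by Day 3 and control drew near it later. *Plcb1*, a phospholipase C of G protein signaling, went from 6.09 and 3.74 to 16.1 and 19.7 CPM in control and from 19.5 and 10.4 to 17.2 and 17.8 in *Sox17*-*Erg* samples. *Fibin*, a secreted protein first described in fin development, went from 5.91 and 2.09 to 11.8 and 7.75 CPM in control and from 13.5 and 9.56 to 7.08 and 9.93 in *Sox17*-*Erg* samples. *Stard13*, a protein with a lipid-binding START domain, went from 21.5 and 20.2 to 54.7 and 42.6 CPM in control and from 59.8 and 35.3 to 39.5 and 46.9 in *Sox17*-*Erg* samples. *Gabre*, a GABA receptor subunit, had 4.63 and 4.89 against 4.72 and 6.15 CPM at Day 7, where its groups overlapped.

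**Figure D5:**
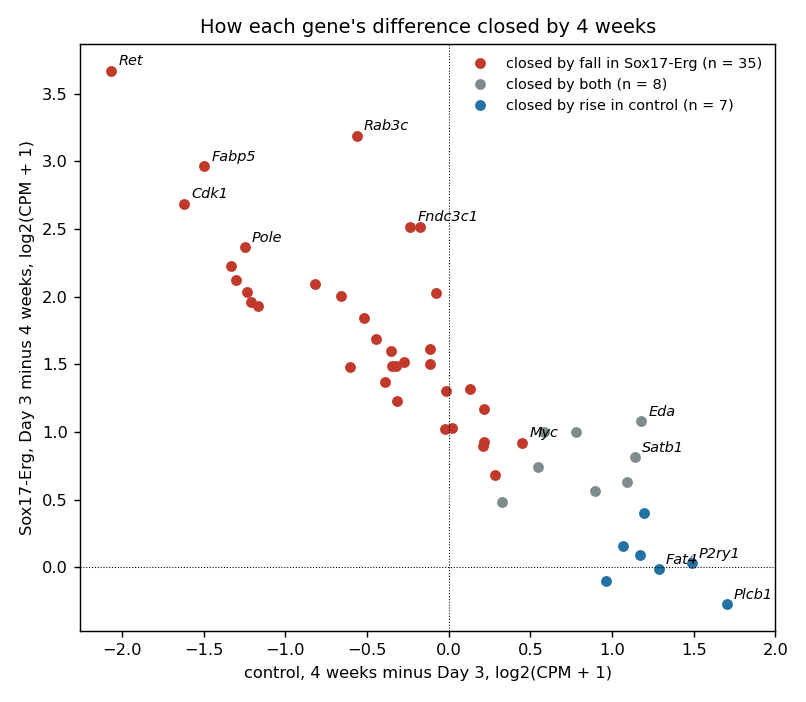
Fall of each gene's mean in *Sox17*-*Erg* samples from Day 3 to 4 weeks (y axis, log2(CPM + 1)) against its rise in control (x axis, same scale), colored by the way the difference closed. The selection keeps the sum of both axes near the Day 3 difference, so the slope is built in, and the reading is the position along it, from *Ret* with -2.07 in control to *Plcb1* with 1.70.

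The remaining members have less settled roles or doubtful counts. *St7* had 7.27 and 7.25 CPM in control and 18.3 and 14.2 in *Sox17*-*Erg* samples at Day 3, and 7.66 and 7.30 against 14.9 and 14.9 at Day 7. Its Day 7 change of 1.01 ± 0.14 had the second lowest p of the members (adjusted p = 0.0019, edgeR). *Fndc3c1* had 0.369 and 0.222 against 7.94 and 2.67 CPM at Day 3 and was called at Day 7, and 19.4% of its 31-base words occur in other genes. *Gm14434*, *Gemin4* and *Slfn9* shared 100%, 89.7% and 23.6% of theirs, and the values of these genes are uncertain because estimated counts can move between such copies. None of the 3 was called. Of the 50 members, 9 lie on the X chromosome, or 18.0%, against 3.59% of protein-coding genes with a count and 4.83% of the sustained genes. They were *Eda*, *Gabre*, *Irs4*, *Cysltr1*, *Dkc1*, *Nup62cl*, *Bex1*, *Usp51* and *Fndc3c1*. Of these 9, 5 were called higher at Day 7, against 34.0% of all members and 9.48% of all genes tested. The replicates differed in sex-linked genes, with 4 Y-linked genes lower in replicate 1 than in replicate 2 in each of the 6 groups, and the part of this in the members' values was not tested. No member was in the lists of endothelial, arterial or Notch pathway genes, where 18 of 45, 14 of 20 and 11 of 20 genes were called higher at Day 7. Called lower were 3, 1 and 0 of them, against 9.48% higher and 7.93% lower of all genes tested. With 50 members among 15506 genes tested, lists this short would hold few or none, so nothing is read from the absence. *Nrp1*, of the arterial list, lay just outside the upper 4 week limit.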

How the data were processed

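Bulk RNAseq of 12 libraries was used, and the sample titles gave treatment, time and replicate number. Per the labels, stranded mRNA libraries were made from Trizol extracts, and the processing notes name bcl2fastq 2.20.0, Salmon, DESeq2 and mm10. The Salmon version and the annotation are not given in the sources used here. The authors deposited estimated counts per gene for 35727 Ensembl IDs, rounded to whole numbers and not scaled for depth. Estimated counts share reads between similar transcripts, so near-identical genes can trade counts. GENCODE M21 on GRCm38 held 35493 of the IDs and gave symbols, positions and gene types.

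Members were selected on CPM over library totals, with a pseudocount of 1 CPM, which understates fold changes of low genes. At this depth 3 counts equal between 0.0727 and 0.158 CPM, and such values cover counting error only. For the Day 7 test, edgeR 4.0.16 in R 4.3.3 was run on the counts of all genes (TMM, factors 0.953 to 1.08, filterByExpr with minimum count 10 and minimum total 15), which kept 15506 genes and all 50 members. Its quasi-likelihood fit had 1 coefficient per group, 6 groups and 6 residual degrees of freedom gave fold changes, and p-values were adjusted over all genes tested. Alternatives were the DESeq2 1.42.0 Wald test, its size factors, other filters and thresholds, the Day 7 libraries alone, a replicate block and leaving out each library. Leaving out genes that share sequence, or that control holds at 3 counts or fewer at Day 7, was added after the data were seen.

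The members and the gene lists were chosen with earlier results of these data known, and roles were assigned after the members were seen. Genes were named when among the 10 largest Day 3 differences (with at least 5 CPM in both *Sox17*-*Erg* libraries), the 5 most abundant, the 10 largest called at Day 7, the 5 largest falls or rises, the 5 largest and smallest Day 7 differences (with at least 5 CPM in some Day 7 library), the nearest to each limit (with at least 5 CPM in some group) or in a list. One gene nearest a limit is not reported here. *Nup43*, *Ctnnd2*, *Cysltr1*, *Stard13*, *Cyp2j5*, *St7* and the members given only by role were added after their values were seen. Promoters and their sequences are from RefSeq on GRCm38.p6.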

Additional observations from a re-analysis of the deposited data

Results flagged for a closer look

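For 5 members both *Sox17*-*Erg* libraries lay above both control libraries at Day 3 and both lay below them at 4 weeks, on the log2(CPM + 1) scale. Their 4 week differences, *Sox17*-*Erg* minus control, were -0.14 for *Fndc3c1*, -0.22 for *St3gal1*, -0.060 for *Ret*, -0.23 for *Rspo3* and -0.25 for *Soga3*. The difference between the time points was not tested, since both were used to choose the genes, and *Fndc3c1*, *Ret*, *Rspo3* and *Soga3* had under 1 CPM in every library at 4 weeks.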

How the results depend on the processing

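No member was called lower at Day 7 under any of the 11 other fits. The count called higher was 17, and it was 5 in the Day 7 libraries alone, where 46 members were tested, and 5 at an adjusted p under 0.01. It ran from 5 to 14 without single libraries, and *Sox17*-*Erg* replicate 1 gave the 5. The other alternatives gave 14 to 20. With a replicate block, which fits 1 replicate effect over all 6 groups, it was 18. Same-numbered libraries deviated together by correlations of 0.19, 0.30 and 0.17 over genes at the 3 time points. Between Day 3 and Day 7 groups the correlations were 0.14 to 0.22, and between 4 week groups and earlier ones -0.14 to -0.0064. The block thus assumes an effect that the 4 week libraries did not share over genes. In 24 of 24 comparisons within groups, 4 Y-linked genes were lower in replicate 1. The correlations within time points and the Y-linked genes are hints that the numbers pair the libraries at each time point. No label says what a number shares. Without the 5 members that share sequence, 15 of 45 were called, and 12 of 44 without those near 0 in control. The median Day 7 difference of 0.54 ran from 0.31 to 0.81 without single libraries, and was 0.26 with a pseudocount of 5 CPM and 0.73 with 0.1 CPM. The rule itself gave 114 genes with a pseudocount of 0.1 CPM, with only 34 of the 50 among them, 33 with a 4 week window of 0.2, 86 with one of 0.5 and 14 with a Day 3 difference of at least 1.5. In these settings 72, 25, 63 and 8 closed by a fall in *Sox17*-*Erg* samples, and 23, 5, 13 and 1 by a rise in control. Without single libraries the rule gave 25 to 126 genes, of which 16 to 102 closed by a fall and 5 to 12 by a rise. TMM scaling moved the median of all genes by no more than 0.045 in size and gave 55 genes, including all 50. The causes were not tested. With 2 libraries per group and members near 1 CPM, depth limits what the low genes can show.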
